A study of Mus musculus with 51 samples.

Results

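The genes described here are 10 genes of the contractile apparatus, *Tpm1*, *Tagln*, *Cnn1*, *Acta2*, *Actc1*, *Tnnc1*, *Myl4*, *Myl3*, *Myl7* and *Tnnt2*, among 24538 genes in each expression table. They were taken by symbol from a list chosen by the FPKM values of these same tables, the KO to WT and stage ratios included, so their levels and ratios are given as a description with no test. All 10 symbols were found in all 9 tables. RNA-seq was made from F1G4 wild-type (WT) mouse embryonic stem (ES) cells, collected as aggregates (ES, before differentiation) and on days 1, 2 and 3 of differentiation with Bmp4 (20 ng/ml) towards cardiac mesoderm, for which the labels give 2 samples each. They give 1 sample for each day and KO line, on days 2 and 3 for *Eomes* KO, *T* KO and double KO of both genes (dKO), and on days 1 and 2 for *Smad4* KO and its parental WT line. All differentiating cells received Bmp4, feeder fibroblasts having been removed beforehand. The *Eomes* KO and *T* KO cells were derived from F1G4 as picked clones in which a Cas9 nickase had deleted the promoter with the first exon, and the dKO cells from the *Eomes* KO cells. The *Smad4* KO cells were clones from a line of 129S/SvEv and C57BL/6 background, in which transient Cre had removed a floxed first exon. A KO line is therefore 1 clone or a few, and clone and genotype cannot be told apart.

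Values are FPKM, fragments scaled to transcript length and library size, so that levels of different genes can be compared per length. Each condition is represented by a single pooled value. The study's legends speak of averaged replicates, so the number of samples behind a KO column is unclear. No spread between replicates, n or test could be derived from the files, and the sequencing depth is unknown. The rule used for a difference is one of size alone: FPKM above 1 in either condition and a log2 ratio above 1 or below −1. Ratios were taken within a table unless stated, and the WT levels given are those of the time course. In bulk RNA, more cells that express a gene and more RNA per cell cannot be told apart.

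In muscle, actin filaments slide along myosin. In striated muscle the sarcomere is switched by calcium through the troponin complex on tropomyosin, whereas in smooth muscle calcium acts through phosphorylation of the myosin light chain and through actin-binding proteins such as calponin. Many of these genes are targets of serum response factor (SRF), which binds the CArG box. *Tagln*, *Acta2* and *Cnn1* are widely used as smooth muscle markers but are also made by mesenchymal cells and fibroblasts and, transiently, by the early embryonic heart, while *Tpm1* is also expressed in non-muscle cells.

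Of the 10 genes, 9 were matched by symbol to RefSeq promoters (GRCm38.p6), and *Tagln* had no entry. In the 250 bases before the start, a CArG box in its strict form (CC, then A or T at each middle position, then GG) was found in 3 members, *Actc1*, *Myl3* and *Myl7*. It occurred in 482 of 32851 promoters of the same length (1.47%). These 3 promoters are shown because they carry the strict form in the group while their genes differed in behaviour across the KO cells. Sequences that depart from the strict form by a letter were neither searched for nor marked. An example is ccctatatgg in the windows of *Actc1* and *Acta2*. The capitals mark the CArG box and CATTCC, the core of the TEAD motif, or its reverse complement GGAATG, read on both strands. No overlap between these marked matches was present.
Actc1 (chr2:114052876-114053125, minus strand): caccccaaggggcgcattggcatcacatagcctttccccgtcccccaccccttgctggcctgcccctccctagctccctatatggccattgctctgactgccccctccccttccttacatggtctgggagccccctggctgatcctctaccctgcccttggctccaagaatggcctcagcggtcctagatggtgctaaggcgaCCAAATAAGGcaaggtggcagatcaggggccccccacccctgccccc
Myl3 (chr9:110763428-110763677, plus strand): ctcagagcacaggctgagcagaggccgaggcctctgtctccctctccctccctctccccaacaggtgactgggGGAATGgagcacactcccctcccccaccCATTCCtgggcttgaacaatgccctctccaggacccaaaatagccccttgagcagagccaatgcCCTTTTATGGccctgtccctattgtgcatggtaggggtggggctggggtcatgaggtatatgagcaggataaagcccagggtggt
Myl7 (chr11:5898783-5899032, minus strand): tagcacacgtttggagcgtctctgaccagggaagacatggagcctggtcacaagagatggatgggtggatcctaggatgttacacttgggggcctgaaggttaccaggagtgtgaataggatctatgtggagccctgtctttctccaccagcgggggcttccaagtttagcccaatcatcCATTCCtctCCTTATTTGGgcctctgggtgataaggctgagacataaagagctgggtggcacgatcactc
The CArG box lay at −47 to −38 from the start in *Actc1*, at −85 to −76 in *Myl3* and at −61 to −52 in *Myl7*. CATTCC was present in 12.6% of all promoters and in those of *Tpm1*, *Acta2*, *Tnnc1*, *Myl3*, *Myl7* and *Tnnt2*. Windows were taken before listed promoter starts, which need not be the gene start. Those of *Myl4* and *Tpm1*, and 1 of the 2 of *Tnnt2*, lay wholly inside the gene spans given below. The T-box core GGTGTG (16.3% of all promoters) and TATAAA (12.4%) were not found in these windows of any member. The GATA core AGATAA (9.99%) was found in 1 window of *Tnnt2*. Such matches describe letters in a window and not binding, and binding data were not analysed here.

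In WT cells *Tpm1*, *Tagln*, *Cnn1* and *Acta2* passed the rule upwards from day 1 to day 2, whereas *Actc1*, *Tnnc1*, *Myl4* and *Tnnt2*, and *Acta2* once more, passed it from day 2 to day 3. *Tpm1* (chr9:67022590-67049672, mm10), an actin-filament stabilising tropomyosin, had FPKM 106 in the ES state, 173 on day 1, 703 on day 2 and 1157 on day 3. On day 3 it stood above 99.8% of all genes. *Tagln* (chr9:45929628-45936058), which encodes the actin-binding protein transgelin (SM22α), went from 9.00 to 19.3, 167 and 222 on the same days. *Cnn1* (chr9:22099221-22109221), calponin 1, an inhibitor of actomyosin ATPase activity, went from 1.25 to 8.20, 17.0 and 17.9. *Acta2* (chr19:34240336-34255585), smooth muscle α-actin, was at 0.905, 1.91, 3.84 and 10.7. Thus *Tpm1* and *Tagln* made their largest step between days 1 and 2 (log2 2.02 and 3.11), *Cnn1* between the ES state and day 1 (log2 2.71), and *Acta2* between days 2 and 3 (log2 1.48). *Tpm1*, *Tagln* and *Cnn1* changed by 0.72, 0.41 and 0.07 on the log2 scale from day 2 to day 3, below the rule.

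The sarcomere genes were near or below FPKM 1 until day 2. *Tnnc1* (chr14:31208312-31211729), the calcium-binding troponin C of heart and slow muscle, was listed at 0.312, 0.260, 0.530 and 7.02 from the ES state to day 3. *Myl4* (chr11:104546017-104587215), an atrial and embryonic essential myosin light chain, was at 0.602, 0.334, 0.409 and 4.03. *Actc1* (chr2:114047282-114052875), cardiac α-actin, was at 0.0367, 0.455, 0.852 and 2.44. *Tnnt2* (chr1:135836315-135852268), cardiac troponin T, was listed at 0 on day 1 and reached 1.01 on day 3. From day 2 to day 3 these 4 genes passed the rule upwards, with log2 ratios of 3.73 for *Tnnc1*, 3.30 for *Myl4*, 1.52 for *Actc1* and, from 0.03 on day 2, 4.93 for *Tnnt2*. *Myl3* (chr9:110763678-110769802), the ventricular and slow muscle essential light chain, stayed between 0.426 and 0.630, and *Myl7* (chr11:5896637-5898782), the atrial regulatory light chain, between 0.63 and 1.34. From the ES state to day 3 their log2 ratios were 0.22 and −0.38, and neither passed the rule.

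**Figure D1:**
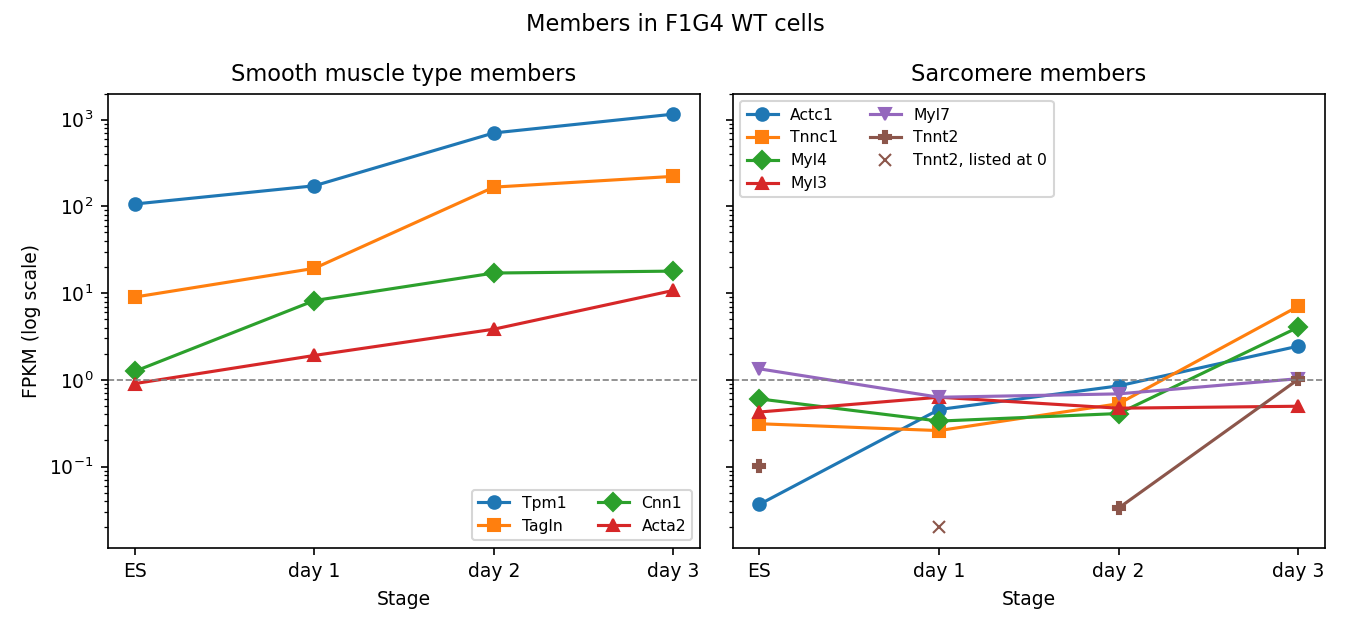
FPKM of the 10 genes in F1G4 WT cells (log axis) against stage, 1 pooled value per point, with the dashed line at FPKM 1; the cross marks *Tnnt2* listed at 0. *Tpm1* and *Tagln* climb most between days 1 and 2, whereas *Tnnc1*, *Myl4* and *Tnnt2* climb between days 2 and 3.

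Counted by the rule, the members rising between successive stages were 3 of the 5 examined from the ES state to day 1 (*Tagln*, *Cnn1* and *Acta2*), where *Myl7* was the only one lower. Of all genes examined there, 7.70% were higher and 5.84% lower. From day 1 to day 2 it was all 4 examined (*Tpm1*, *Tagln*, *Cnn1* and *Acta2*), against 7.18% of all genes. From day 2 to day 3 it was 5 of 9 (*Acta2*, *Actc1*, *Tnnc1*, *Myl4* and *Tnnt2*), against 6.14%. Between the ES state and day 3, 8 of 9 members were higher, against 18.5% of all genes. The members are a list picked for such changes, so these counts carry no test. Several calls rest on low FPKM. With a pseudocount of 1, *Acta2* and the lower *Myl7* no longer passed in the first step, nor *Acta2* and *Cnn1* in the second, nor *Actc1* and *Tnnt2* in the third. From the ES state to day 3 the ratio of *Tnnt2* then fell from log2 3.30 to 0.87, below the rule. With a pseudocount of 0.1, *Myl7* in the first step (−0.98) and *Acta2* in the second (0.97) were already below it.

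The cultures were meant to form cardiac mesoderm, and the defining markers of muscle cells were listed at levels from 0 to above FPKM 1 on day 3. Of the 5 cardiomyocyte markers (*Myh6*, *Tnni3*, *Actn2*, *Ttn* and *Nkx2-5*), *Tnni3* alone exceeded FPKM 1 in WT cells on day 3 (1.61), and their sum was 1.85. *Nkx2-5* was listed at 0 there. Of the 4 smooth muscle markers, *Myh11* (0.22) and *Myocd* (0.04) were near 0, *Smtn* was at 4.48 and *Lmod1* at 1.38. The skeletal muscle factors *Myod1* and *Myog* were listed at 0, whereas *Acta1*, skeletal α-actin, was at 14.3, above *Acta2* and *Actc1*. The 14 fibroblast or feeder markers summed to 13.1, with *Col5a1* highest at 5.79, *Col1a1* at 0.47 and *Fap* listed at 0.

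Related genes were counted in WT cells between the ES state and day 3, where 18.5% of all genes examined were higher and 12.6% lower. Of 11 further smooth muscle genes, 7 were examined and 5 were higher, led by *Lmod1* and *Cald1*. *Cald1*, caldesmon, rose from FPKM 5.41 to 81.0. The median log2 ratio of all 11, of which 4 were at or below FPKM 1 in both conditions, was 1.08 with a pseudocount of 0.1 and 0.54 with a pseudocount of 1. Of 15 non-muscle actomyosin genes, 8 were higher and none lower, among them *Tpm4* (68.4 to 457), *Zyx* (0.748 to 12.7) and *Tagln2* (47.3 to 142). *Actb*, the most abundant, went from 1202 to 1228. Of 7 targets of SRF with its cofactors or of YAP, 4 were higher (*Ankrd1*, *Thbs1*, *Cyr61* and *Ctgf*) and *Lima1* was lower. Of 9 skeletal muscle genes, *Acta1*, *Tnnt3* and *Tnni2* were higher and *Tnnc2* and *Myh3* lower. Of 16 cardiac sarcomere genes, 3 were examined, of which *Tnni3* and *Nexn* were higher. *Tnnt1*, also examined, went from 5.69 to 4.63 and did not pass. The median log2 ratio of all 16 was negative, −0.42 with a pseudocount of 0.1 and −0.14 with a pseudocount of 1.

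Before the KO comparisons, WT cells of both lines show how far these genes differed between lines without a KO, which cannot be told apart from strain and from the floxed *Smad4* alleles that the *Smad4* line carries. The tables were normalized separately, and these columns were brought to a common median. On day 1, 6 of 6 members examined were higher in WT cells of the *Smad4* line than in F1G4 WT cells, as were 7.36% of all genes. *Tagln* was at 169.6 against 19.3 as deposited (log2 3.19), *Tpm1* at 552 against 173 (log2 1.73) and *Acta2* at 9.94 against 1.91 (log2 2.43). *Cnn1*, *Tnnc1* and *Myl3* differed by log2 1.21, 2.75 and 1.27, and with a pseudocount of 1 *Myl3* no longer passed (0.63). On day 2 *Tnnc1* alone passed (1.86 against 0.530, log2 1.82, or 0.91 with a pseudocount of 1), against 1.58% of all genes higher there. *Tagln* was then at 154 and 167. Differences of the size seen on day 1 thus occurred between WT lines at the same labelled day.

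*Smad4*, the shared partner of the Bmp and Nodal Smads, was removed to ask which genes depend on Smad signalling. *Smad4* itself had FPKM 33.8 in the WT column of day 1 beside 39.4 in the KO column, with 39.3 beside 46.8 a day later, so that the KO columns were not the lower ones. These values cover the whole gene, and the deleted exon was not read separately here. On day 1 none of 7 members examined passed the rule, beside 4.77% of all genes. On day 2 *Myl3* alone was higher, beside 2.56% of all genes. Over the same day *T*, a nascent mesoderm factor, was at 26.6 in WT cells, with 0.891 in KO cells. *Tpm1*, *Tagln* and *Acta2* stood at nearly equal levels. On day 2 *Tpm1* was at 804 in WT and 781 in KO, *Tagln* at 154 and 151 and *Acta2* at 6.19 and 6.26. Their log2 ratios were −0.04, −0.02 and 0.01. *Cnn1* was at 21.2 and 32.4 (log2 0.61). For *Myl3* the WT value was 0.285 and the KO value 3.03 (log2 3.41). Day 1 levels of *Myl3* were 1.46 and 1.96, so that from day 1 to day 2 the WT value was lower and the KO value higher.

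Among related genes in *Smad4* KO cells, *Tnnt3*, fast skeletal troponin T, was lower on day 1 (FPKM 1.51 in WT, 0.04 in KO) together with *Actg2* (1.16 and 0.13). *Hand1*, a factor of lateral and cardiac mesoderm, was lower on both days. *Myl9*, the regulatory light chain of smooth and non-muscle myosin, was higher on day 2 (10.9 and 23.1), as were *Tnnt1* (1.73 and 4.02) and *Tnnc2* (0.49 and 2.17). None of the 15 non-muscle actomyosin genes passed on either day. The neural factors *Sox1* and *Pax6* were higher on both days, and of the 14 fibroblast or feeder markers *Dcn* alone passed on day 2 (0 and 2.02). Their sum was then 7.00 in WT and 8.32 in KO, with a median log2 ratio of 0.01, and *Col5a1*, the highest in WT, was at 3.09 and 1.73.

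*Eomes* and *T* are T-box factors needed for nascent mesoderm. In the *Eomes* KO cells *Eomes* was at 2.42 on day 2 and 0.28 on day 3, against 9.50 and 19.4 in WT. In the *T* KO cells *T* was at 6.64 and 3.00, against 43.5 and 319.9, and in the dKO cells *T* was at 2.77 and 1.93 and *Eomes* at 1.24 and 0.346. The targeted genes thus went with the labels. Across all genes, however, the KO to WT ratios of *Eomes* KO on day 2 and on day 3 had a Pearson r of 0.0948 over 6727 genes, whereas *Eomes* KO on day 3 and *T* KO on day 2, which share no WT column, had an r of 0.599 over 6765 genes. Among the other pairs without a shared WT column, dKO on days 2 and 3 had an r of 0.585, *T* KO on days 2 and 3 had 0.221, and *Eomes* KO on day 2 with dKO on day 3 had 0.604. These are descriptions across genes, which are not replicates. Whether batch or labelling had a part in this likeness was not tested, nor was the part of the likeness in the member ratios of these columns.

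**Figure D2:**
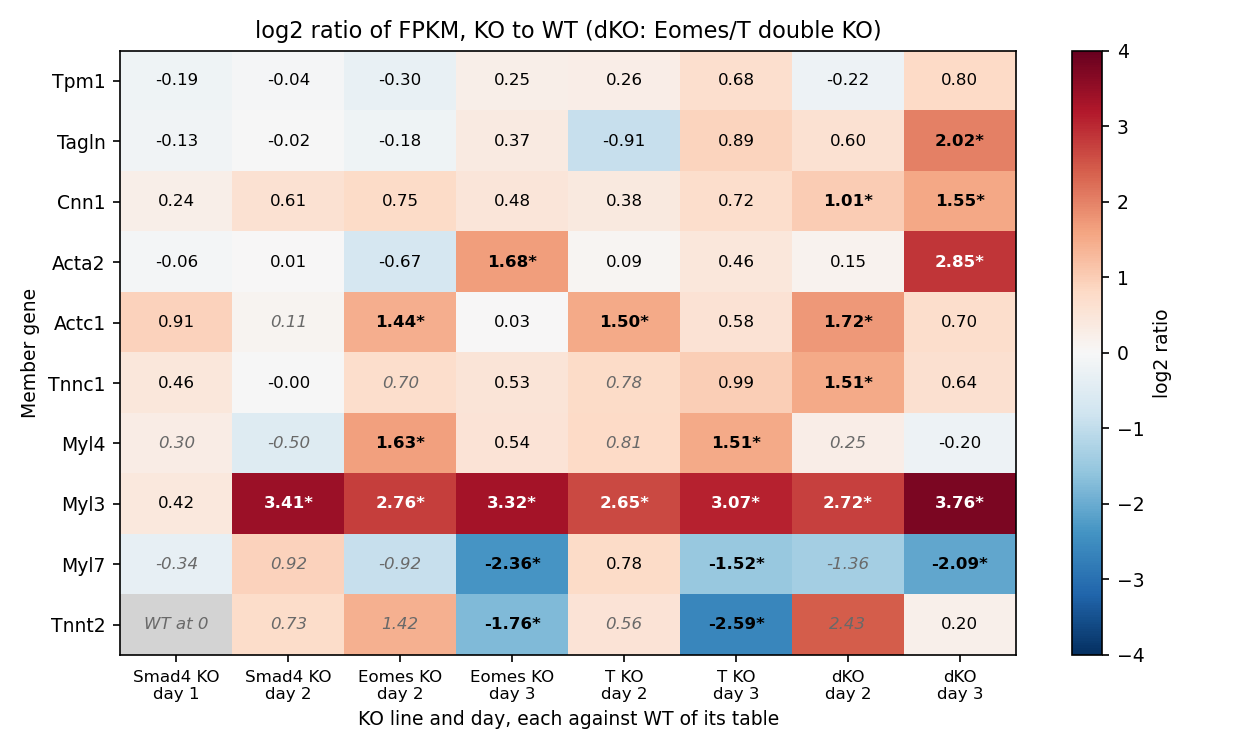
Log2 ratio of FPKM of each gene (rows) in 8 KO to WT comparisons (columns), with bold numbers and stars for those past the rule and grey italics where both values were at or below FPKM 1. *Myl3* is past the rule in 7 of 8 columns, and *Tpm1*, *Tagln*, *Cnn1* and *Acta2* are highest in the dKO on day 3.

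On day 2 *Actc1* and *Myl3* passed the rule upwards in each of the 3 KO lines, and *Myl4*, *Cnn1* and *Tnnc1* in 1 line each. In *Eomes* KO cells 3 of 7 members examined were higher (*Actc1*, *Myl4* and *Myl3*), beside 3.35% of all genes. In *T* KO cells 2 of 7 were higher (*Actc1* and *Myl3*), beside 5.70%. In dKO cells 4 of 7 were higher (*Cnn1*, *Actc1*, *Tnnc1* and *Myl3*), beside 3.48%. *Actc1* was at 0.852 in WT, 2.30 in *Eomes* KO, 2.50 in *T* KO and 2.78 in dKO cells, with log2 ratios of 1.44, 1.50 and 1.72. *Cnn1* was at 17.0 in WT and 28.5, 23.0 and 34.0 in the same KO cells. *Tpm1* (703 in WT, 564, 869 and 598) and *Tagln* (167 in WT, 146, 91.8 and 250) did not pass in any of them. *Acta2* was at 3.84 in WT and at 2.40, 4.23 and 4.22. The 3 KO comparisons of a day share their WT column, so a WT value that was low by error would make all 3 high. With a pseudocount of 1, *Myl3* kept its call in each of the 3 lines and *Actc1* in the dKO, while the calls for *Actc1* in the single KO cells, *Myl4*, *Cnn1* and *Tnnc1* were lost. The neural markers *Sox1* and *Pax6* summed to 0.30 in WT on this day. In the *Eomes* KO, the *T* KO and the dKO they summed to 11.7, 4.79 and 9.4. Nascent mesoderm markers summed to 54.2 in WT and to 25.2, 31.9 and 4.28. The mesoderm sum is mostly *T* (43.5 in WT) and *Eomes* (9.50), so in each line it includes the deleted gene or genes. In *T* KO cells *Eomes* made up 24.7 of it, above its WT level. The part of these marker sums in the day 2 values was not tested.

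*Actc1* shares most of its coding sequence with the other muscle actins, and the FPKM calculation divides reads that fit several genes. With *Acta1*, *Acta2*, *Actc1* and *Actg2* summed, the total was 13.0 in WT on day 2 and 12.3, 18.05 and 16.3 in cells lacking *Eomes*, *T* or both, and no sum passed the rule. On day 3 the sum was 27.5 in WT, 75.2 in *Eomes* KO, 39.1 in *T* KO and 149.7 in dKO cells. The log2 ratios of the sum were 1.39 for *Eomes* KO and 2.39 for dKO, past the rule. *Acta1* made up 8.11 of the sum in WT on day 2 and, beside 80.1 for *Acta2*, 65.3 in dKO cells on day 3. Whether reads were divided correctly among these genes was not tested.

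On day 3 *Tpm1*, *Tagln*, *Cnn1* and *Acta2* were highest in the dKO cells. *Tpm1* was at 1157 in WT, 1431 in *Eomes* KO, 1865 in *T* KO and 2092 in dKO cells. *Tagln* was at 222, 299, 415 and 936 in the same order. *Cnn1* was at 17.9, 26.1, 29.7 and 54.6. For these 3 genes the order of levels was WT, *Eomes* KO, *T* KO and dKO. *Acta2* was at 10.7 in WT, 35.9 in *Eomes* KO, 14.9 in *T* KO and 80.1 in dKO cells, so that the single KO lines changed places. The dKO to WT log2 ratios were 2.02 for *Tagln*, 1.55 for *Cnn1*, 2.85 for *Acta2* and 0.80 for *Tpm1*. All but *Tpm1* passed the rule. In the single KO cells *Acta2* in *Eomes* KO (log2 1.68) was the one of these 4 genes to pass. Without replicates, neighbours in these orders cannot be separated, and of the ratios past the rule those of *Cnn1* and *Acta2* in the dKO exceeded the difference of the same gene between the WT lines on day 1, and those of *Tagln* in the dKO and *Acta2* in *Eomes* KO did not. On day 2 the WT lines differed less, by log2 −0.11 for *Tagln*, 0.33 for *Cnn1* and 0.70 for *Acta2*, and all 4 ratios were beyond these. No second WT line was given for day 3.

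**Figure D3:**
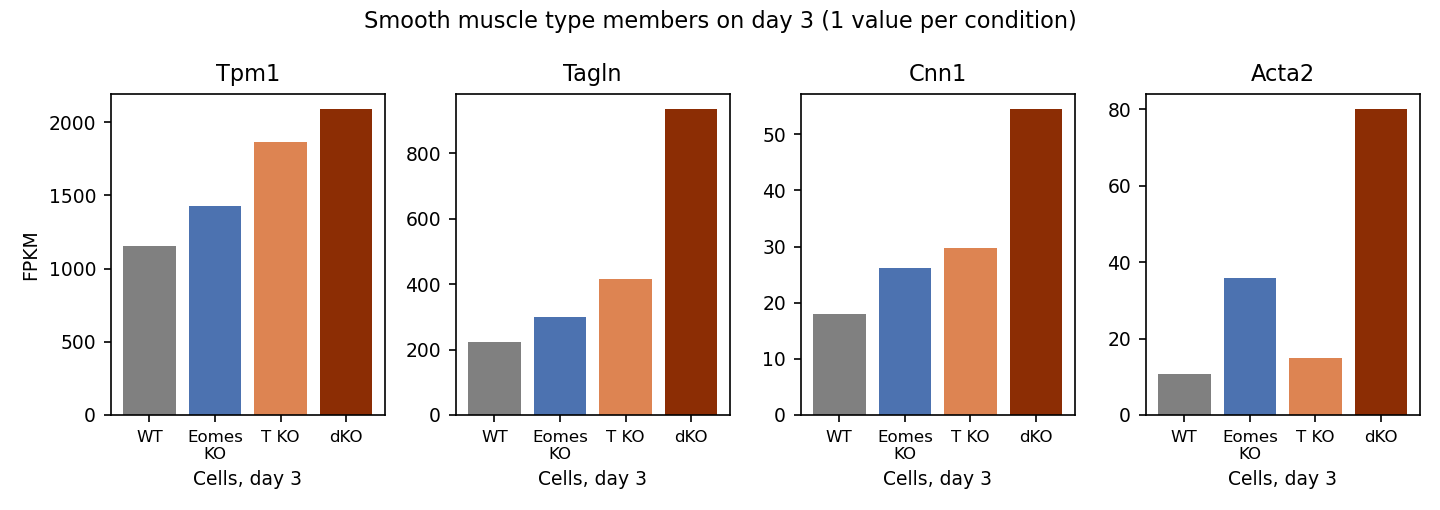
FPKM as deposited of *Tpm1*, *Tagln*, *Cnn1* and *Acta2* on day 3 in F1G4 WT, *Eomes* KO, *T* KO and dKO cells, 1 pooled value per bar and linear axes from 0. The dKO bar is the tallest for each gene, with *Acta2* at 80.1 against 10.7 in WT.

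The sum of these 4 genes on day 3 was 1408 in WT, 1792 in *Eomes* KO, 2324 in *T* KO and 3163 in dKO cells. On day 2 it had been 890.0, 742, 988 and 886. *Tpm1*, which did not pass the rule, was the largest part of each sum. On day 3 it made up 1157 in WT and 2092 in dKO cells. Compared directly on a common scale, the dKO cells on day 3 were above the *Eomes* KO cells by log2 1.66 for *Tagln*, 1.07 for *Cnn1*, 1.17 for *Acta2* and 0.56 for *Tpm1*, and above the *T* KO cells by 1.13, 0.83, 2.38 and 0.12. From day 2 to day 3 within the dKO cells, *Acta2* differed by log2 4.18, *Tagln* by 1.83, *Tpm1* by 1.74 and *Cnn1* by 0.61. In *Eomes* KO cells the same step was 3.82, 0.95, 1.27 and −0.20, and in *T* KO cells 1.85, 2.21, 1.13 and 0.40. In WT cells it was 1.48, 0.41, 0.72 and 0.07. The comparisons between KO columns join different tables and were not given calls, whereas the WT step lies within 1 table.

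By the rule, 4 of 10 members examined were higher (*Tagln*, *Cnn1*, *Acta2* and *Myl3*) and *Myl7* was lower in dKO cells on day 3, beside 5.51% of all genes higher and 5.53% lower. In *Eomes* KO cells *Acta2* and *Myl3* were higher and *Myl7* and *Tnnt2* lower, beside 7.39% and 9.01% of all genes. In *T* KO cells *Myl4* and *Myl3* were higher and the same pair was lower, beside 2.12% and 3.92%. The median log2 ratio over the 10 members, with a pseudocount of 0.1, was 0.43 in *Eomes* KO, 0.70 in *T* KO and 0.74 in dKO cells, and it was −0.04, −0.01 and −0.03 over all genes examined.

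Among the sarcomere genes on day 3, *Tnnc1* was at 7.02 in WT and at 10.5, 14.0 and 11.4 in the *Eomes* KO, the *T* KO and the dKO, with no ratio past the rule (log2 0.53, 0.99 and 0.64). *Myl4* was at 4.03 in WT and 6.11, 11.6 and 3.66, highest in the *T* KO cells (log2 1.51). It overlaps *Cdc27* on the opposite strand, which was at 39.6 in WT and 34.3 in *T* KO cells. The authors' listed settings for alignment and FPKM name no strand option, and use of strand is not otherwise stated there. *Actc1* was at 2.44 in WT and 2.58, 3.66 and 4.10. *Tnnt2* was at 1.01 in WT, 0.31 in *Eomes* KO, 0.17 in *T* KO and 1.20 in dKO cells. *Myl7* was at 1.03 in WT and 0.21, 0.36 and 0.25. The lower calls for *Tnnt2* and *Myl7* started from a WT level of about FPKM 1, and none of them passed with a pseudocount of 1.

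*Myl3* was the member that differed most regularly. Its FPKM in WT cells was 0.426 in the ES state and 0.630, 0.471 and 0.496 on days 1, 2 and 3. In *Eomes* KO cells it was 3.18 and 5.20 on days 2 and 3, in *T* KO cells 3.08 and 4.23, and in dKO cells 3.09 and 6.99. The log2 ratios ran from 2.65 to 3.76 over these 6 comparisons, and each remained past the rule with a pseudocount of 1. With a minimum of FPKM 5, however, only the day 3 calls in *Eomes* KO and dKO cells remained of these 6, and that in *Smad4* KO cells on day 2 was lost too. All 8 KO columns were above all 5 WT columns of days 1 to 3, the highest WT value being 1.46 in the *Smad4* line on day 1 and the lowest KO value 1.96 in *Smad4* KO cells on that day. *Cnn1* had the same arrangement, by a narrow margin (21.2 and 21.5). The levels come from tables normalized separately, and the KO columns of a day share a WT column.

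**Figure D4:**
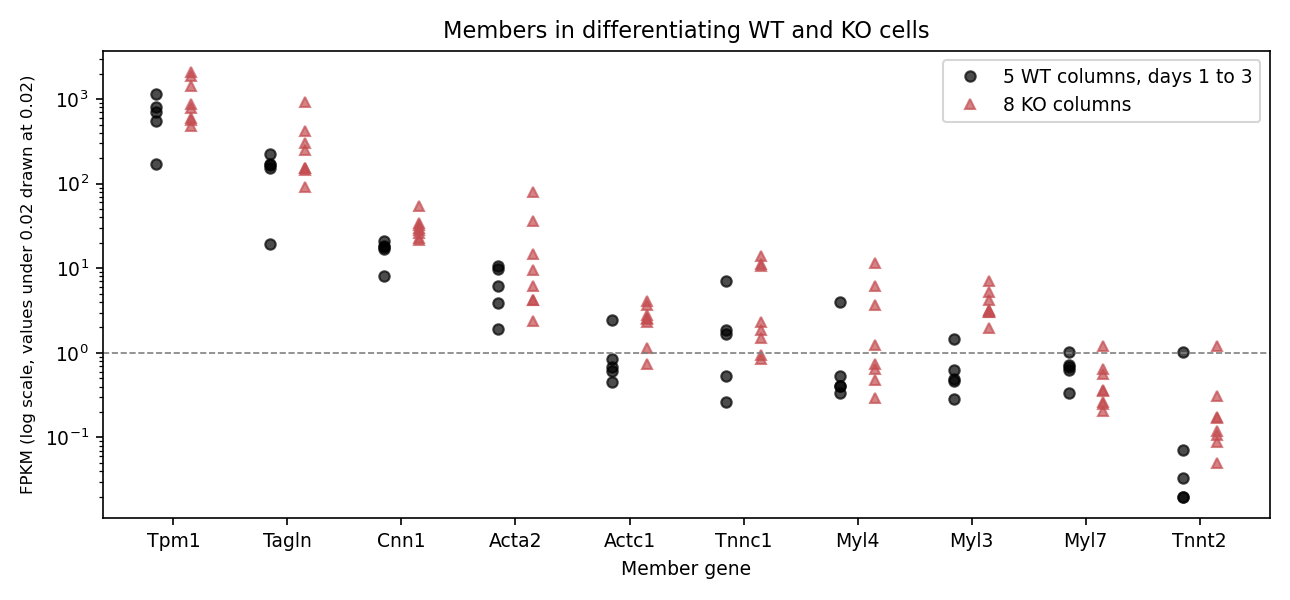
FPKM as deposited (log axis) of each gene in the 5 WT columns of days 1 to 3 (circles) and the 8 KO columns (triangles), 1 pooled value per point, with the dashed line at FPKM 1. For *Cnn1* and *Myl3* every triangle lies above every circle, and for *Myl7* 3 triangles lie below all circles.

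Related genes were followed in the KO cells. *Myl9* was at 13.3 in WT on day 2 and at 34.1, 25.4 and 30.7 in the *Eomes* KO, the *T* KO and the dKO, and at 12.6 on day 3 against 27.9, 38.9 and 61.7. Over the 14 conditions it was the gene whose profile was most like that of *Myl3* (Pearson r 0.939 of log2 FPKM). Of 11 smooth muscle genes, 7 were examined on day 3, and 3 were higher in the dKO cells (*Myl9*, *Tpm2* and *Csrp1*), beside 5.51% of all genes. *Tpm2*, β-tropomyosin, was at 41.2 in WT and 112 in dKO cells, and *Csrp1*, a LIM protein of smooth muscle and actin bundles, at 104 and 269. *Cald1* was at 81.0 and 141, below the rule. In *T* KO cells *Myl9* and *Lmod1* passed, beside 2.12% of all genes, and in *Eomes* KO cells *Myl9*, beside 7.39%. None was lower on day 3 in any of the 3 lines. The median log2 ratio of the 11 genes was 0.26, 0.51 and 0.75 in the *Eomes* KO, the *T* KO and the dKO with a pseudocount of 0.1, but 0.25, 0.25 and 0.19 with a pseudocount of 1, so that no order among the lines can be read from it.

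Among the same 9284 genes, the skeletal actin gene *Acta1* had the profile most like that of *Tpm1* over the 14 conditions (r 0.977). On day 3 it was at 14.3 in WT, 36.6 in *Eomes* KO, 20.4 in *T* KO and 65.3 in dKO cells, an order shared with *Acta2*. *Tnnt3* was at 10.6, 30.3, 9.44 and 33.1, and *Tnni2*, fast troponin I, at 1.94, 4.30, 2.92 and 4.00. *Myod1* and *Myog* remained at or below 0.06 on day 3 in all 4 conditions. Among the cardiac sarcomere genes *Tnnt1*, slow skeletal troponin T, was at 4.63 in WT and 8.72, 10.1 and 13.2 in the *Eomes* KO, the *T* KO and the dKO, and *Nexn* was higher in dKO cells. *Tnni3* was lower in *Eomes* KO and dKO cells, at 1.61 in WT, 0.27 in *Eomes* KO and 0.65 in dKO cells.

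Of the 15 non-muscle actomyosin genes, *Actg1* was the one to pass on day 3, lower in *Eomes* KO (339 in WT, 111 in KO) and dKO cells (165). *Actb* was at 1228 in WT and 1467 in dKO cells. Among the factors, *Mkl1* and *Mkl2*, coactivators of SRF, passed in *Eomes* KO cells on day 3 (1.45 to 3.67 and 3.29 to 7.17). *Srf* was at 14.2 in WT, 7.77 in *Eomes* KO, 15.2 in *T* KO and 11.2 in dKO cells, and *Myocd* was at most 0.07 in these 4 conditions. Of the SRF and YAP targets, *Cyr61* was lower (72.7 in WT, 20.2 in *Eomes* KO and 29.5 in dKO cells) and *Filip1l* higher in both (0.73, 2.103 and 2.34). *Mesp1* and *Isl1*, cardiac progenitor factors, were lower in all 3 KO lines on day 3. *Hand1* was at 20.5 in WT and 62.9 in *Eomes* KO cells, past the rule, and at 29.5 in *T* KO and 32.2 in dKO cells.

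**Figure D5:**
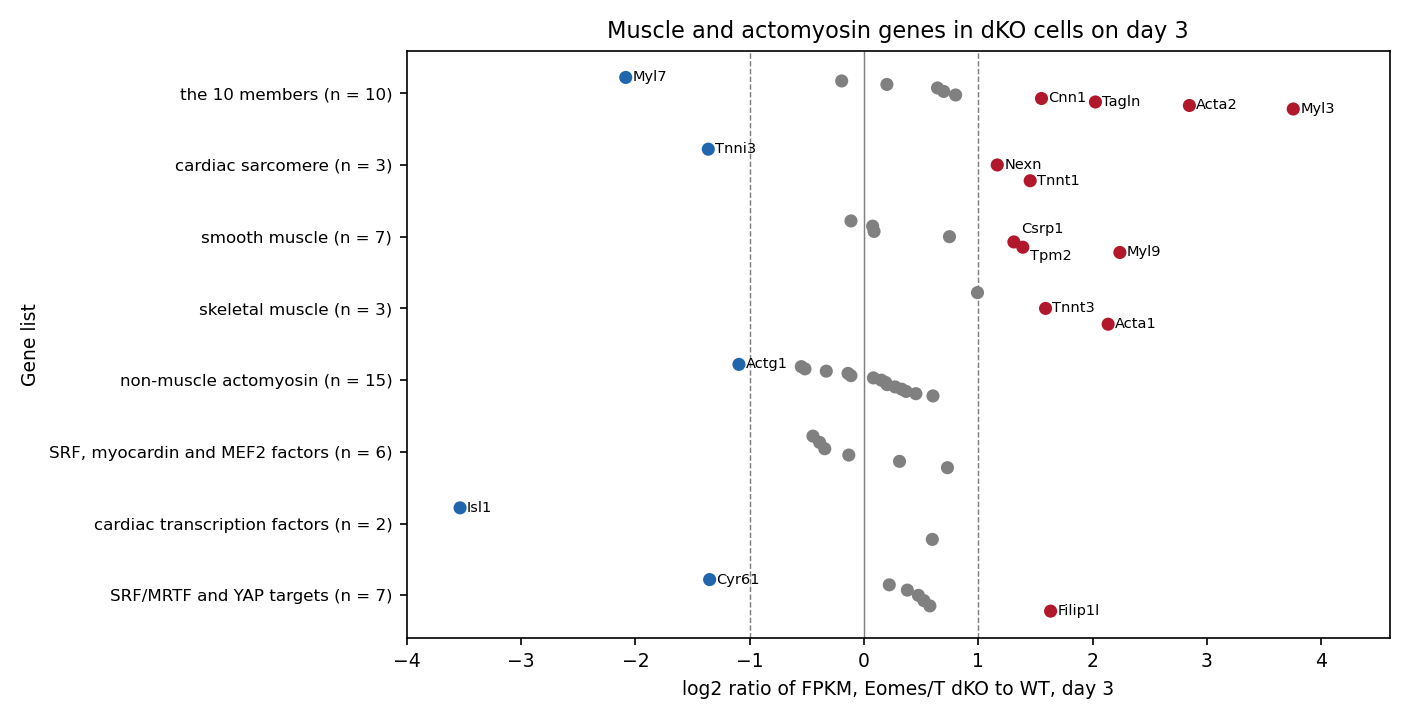
Log2 ratio of FPKM in dKO to WT cells on day 3 (linear axis) for the examined genes of each list (rows), with red and blue points for genes past the rule and grey for the others; *Mesp1*, listed at 0 in dKO cells, has no point. *Myl3*, *Acta2*, *Myl9*, *Acta1* and *Tagln* are above 2, whereas of the non-muscle actomyosin genes *Actg1* alone passed, at −1.09.

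Markers of other cells on day 3 were as follows. The 14 fibroblast or feeder markers summed to 13.1 in WT, 32.1 in *Eomes* KO, 12.6 in *T* KO and 14.2 in dKO cells. *Col5a1* was the most abundant in each (15.9 in *Eomes* KO cells), 3 markers were higher in *Eomes* KO cells (*Fbln2*, *Postn* and *Col5a1*) and none in *T* KO or dKO cells, *Col1a1* was at most 0.95 and *Fap* was listed at 0 in all. The 4 smooth muscle markers summed to 6.12, 7.22, 9.38 and 6.10, with *Smtn* the most abundant, and *Myh11* was at most 0.22. The 5 cardiomyocyte markers summed to 1.85, 1.13, 1.77 and 1.62. The neural factor *Sox1* was at 0.19 in WT and 5.75, 0.91 and 6.49. *Pecam1* was the one endothelial marker examined, higher in *Eomes* KO cells (8.37 against 3.24), while *Cdh5* was at most 0.07. In the dKO cells, where *Tpm1*, *Tagln*, *Cnn1* and *Acta2* were highest, the sums are given beside those of WT. They were 14.2 against 13.1 for fibroblast, 6.10 against 6.12 for smooth muscle and 6.95 against 3.53 for endothelial markers (*Pecam1* 6.63). *Pecam1* was higher still, at 16.6, in WT cells of the ES state, before differentiation. Neural markers summed to 10.5 against 0.24 and skeletal muscle markers to 65.3 against 14.3, the last sum being *Acta1* alone. The 4 nascent mesoderm markers, *T* and *Eomes* among them, summed to 360 in WT and to 4.76, 7.94 and 2.45 in the *Eomes* KO, the *T* KO and the dKO, with *Mixl1* at 15.6 in WT and 0.17 in the dKO. Endoderm markers summed to 4.64 in WT and 1.33, 2.81 and 1.81, and pluripotency markers to 605 in WT and 361, 449 and 591. The part of these sums in the dKO values, and of the higher fibroblast sum in the *Eomes* KO value of *Acta2*, was not tested.

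Over the 14 conditions, the profiles of the members are given as a description, since the columns share lines and tables. *Tpm1* and *Tagln* had an r of 0.935, *Tagln* and *Cnn1* 0.897, *Acta2* and *Tnnc1* 0.898 and *Tnnc1* and *Myl4* 0.835. *Myl7* had a negative r with each of the other 9 members (−0.65 with *Tagln*). Profiles most like that of a member were sought among the 9284 genes that reached FPKM 5. The closest genes were, beside *Acta1*, *Serpinh1* and *Sgce* for *Tpm1*, *Rab11a*, *Arap2* and *Tmem128* for *Tagln*, and *Ifngr1*, *Klhdc2* and *Pex2* for *Cnn1*. They were *Anxa1*, *Arhgap29* and *Tmem159* for *Acta2*, *Ltb*, *Pja1* and *Mtpn* for *Tnnc1*, and *Lgmn*, *Igsf3* and *Vill* for *Myl4*. After *Myl9*, *Haghl* and *Csn3* were closest to *Myl3*. *Anxa1*, a membrane-binding annexin, was at 30.8 in WT and 94.3 in dKO cells on day 3. *Actc1*, *Myl7* and *Tnnt2* never reached FPKM 5 and were left out.

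*Tpm1*, *Tagln*, *Cnn1* and *Myl3* all lie on chromosome 9, where the median log2 ratio of all genes above FPKM 1 was between −0.06 and 0.01 in the 8 KO comparisons. Of the 4 members higher in dKO cells on day 3, *Tagln*, *Cnn1* and *Myl3* are on this chromosome, and the part of position was not tested. *Tagln* overlaps *Pcsk7* on the opposite strand over 2480 bases. *Pcsk7* was at 3.35 in WT and 3.86 in dKO cells on day 3, far below *Tagln*. Longest transcripts of the members ran from 590 (*Myl7*) to 2890 bases (*Tpm1*). In *Eomes* KO cells on day 3 the shortest of 4 equal groups of genes had a median log2 ratio of −0.27 and the longest 0.16, and in dKO cells it was 0.10 and −0.17. On day 2 these medians were 0.29 and −0.26 in dKO, 0.10 and −0.08 in *Eomes* KO and −0.10 and 0.06 in *T* KO cells. Between WT lines on day 1 they were 0.24 and −0.23. The 4 higher members of the dKO comparison on day 3 had longest transcripts of 937 to 2381 bases. They lay in the shortest group for *Myl3* and *Tagln* and the next group for *Acta2* and *Cnn1*. The part of length in the member ratios was not tested.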

How the data were processed

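The authors aligned trimmed reads (cutadapt 2.9) with HISAT2 2.1.0 to mm10 with the refSeq annotation, keeping concordant pairs, and computed the deposited FPKM values with Cuffdiff 2.2.1, correcting for bias and multi-reads but not for effective length. The libraries kept strand and came from total RNA. Of 51 samples the 18 RNA samples were used, and ATAC-seq and ChIP-seq were not analysed here. The FPKM tables hold 20 columns for 14 conditions. F1G4 WT columns of the KO tables were multiples of the time course, within 1% for 90.1% to 99.8% of genes, by factors of 0.989 to 1.04. These factors gave the common scale across tables. Read counts were not used here, so that depth and counting precision are unknown and there were no tests.

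The rule (FPKM above 1, log2 ratio beyond 1) is that of the authors. Its coding was checked on simulated data. There only genes with WT FPKM above 5 were changed, by fixed factors beyond the rule. The check therefore says nothing about how reliable calls are at low FPKM, where many member calls lie. List medians used a pseudocount of 0.1. Members and lists were chosen with earlier results of these data known. Named genes were the 10 members, the targeted genes, genes of the lists past the rule and the highest of a list, and the 3 most alike by Pearson r. A few list genes below the rule are given as values, chosen after they were seen. Sequences and positions came from RefSeq GRCm38.p6. Alternatives were other pseudocounts, minimums, thresholds and scalings. Python 3.11.15, numpy 2.4.6, pandas 2.3.3 and matplotlib 3.10.9 were used.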

Additional observations from a re-analysis of the deposited data

Results flagged for a closer look

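*Acta2* went in opposite directions in *Eomes* KO cells, with a log2 ratio to WT of −0.67 on day 2 (FPKM 2.40 in KO cells) and 1.68 on day 3 (35.9). *Myl7* did so in *T* KO cells, with 0.78 on day 2 (1.22) and −1.52 on day 3 (0.36). Both were singled out because 1 day passed the rule and the other lay beyond 0.5 with the opposite sign, with FPKM above 1 in either condition on both days. *Tnnt2* also changed sign, with 1.42 and −1.76 in *Eomes* KO and 0.56 and −2.59 in *T* KO cells on days 2 and 3. Its day 2 values were at or below FPKM 1 in both conditions, and it was not singled out. The difference between days was not tested, there being 1 value per condition. With a pseudocount of 1 the *Myl7* ratio on day 3 was −0.58 and did not pass.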

How the results depend on the processing

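No paired analysis was possible because each column pools the samples of its condition, and for the same reason no replicate could be left out. The numbers below are of members past the rule, beside that as deposited. With FPKM above 5 there were 0 in *Smad4* KO on day 2 (1), *Eomes* KO on day 2 (3) and *T* KO on day 2 (2), 1 in *T* KO on day 3 (4) and dKO on day 2 (4), 2 in *Eomes* KO on day 3 (4), 2 from ES to day 1 (4), 2 from day 2 to day 3 (5), 5 from ES to day 3 (8) and 0 between WT lines on day 2 (1). With a pseudocount of 1 there were 1 in *Eomes* KO and *T* KO on day 2, 2 in each on day 3, 2 in dKO on day 2, 2 from ES to day 1 and from day 1 to day 2, 3 from day 2 to day 3 and 0 between WT lines on day 2. A threshold of 1.5 gave 1 from ES to day 1 and 2 from day 1 to day 2. Without the minimum there was 1 in *Smad4* KO on day 1 (0) and 3 between WT lines on day 2, where TPM scaling gave 2. The dKO on day 3 stayed within 1.5 times of its 5 under all these alternatives.

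The sum of the 4 muscle actins had a log2 ratio of −0.065 in *Eomes* KO on day 2, where *Actc1* had 1.44 and *Acta2* −0.67. *Actc1* was at 0.852 in WT and 2.30 in KO cells, *Acta2* at 3.84 and 2.40 and *Acta1* at 8.11 and 7.51. How reads were divided among these genes was not tested. With a pseudocount of 1 instead of 0.1, list medians moved from 1.05 to 0.40 (skeletal muscle, *Eomes* KO day 3), from 0.66 to 0.091 (cardiac sarcomere, dKO day 3), from 0.51 to 0.25 (smooth muscle, *T* KO day 3) and from 0.75 to 0.19 (smooth muscle, dKO day 3). From ES to day 3 they moved from 1.08 to 0.54 (smooth muscle), 0.95 to 0.13 (skeletal muscle), 0.93 to 0.28 (cardiac transcription factors) and 3.16 to 1.16 (SRF and YAP targets).

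Over the 14 comparisons 536 to 3591 of all genes passed the rule. This became 3598 to 7770 without the minimum, 122 to 2064 above FPKM 5 and 176 to 2644 with a pseudocount of 1. TPM scaling gave 867 to 4367 and changed 6 of 14 counts by more than 1.5 times, but as columns summed to less than TPM columns do, TPM above 1 is also a lower minimum than FPKM above 1. With column sums made equal and the minimum kept on the deposited values, an alternative chosen after seeing the data, 549 to 3601 genes passed, and 1 of 14 counts, that of dKO on day 2, changed by more than 1.5 times (1.92 times). TPM scaling moved the median log2 ratio of all genes from 0.00 to −0.40 in dKO on day 2 and from −0.06 to 0.23 in *Eomes* KO on day 3. The share of higher genes among those past the rule moved, with equal sums and in parentheses with TPM, from 43.6% to 11.8% (13.0%) in dKO on day 2, from 45.0% to 70.3% (72.0%) in *Eomes* KO on day 3, from 44.5% to 26.2% (27.1%) in *Eomes* KO on day 2, from 36.5% to 48.3% (52.0%) in *T* KO on day 2 and from 65.8% to 49.7% (49.2%) between WT lines on day 1. Among the members, both ended the calls for *Cnn1* in dKO on day 2 (log2 0.60) and *Myl7* from ES to day 1 (−0.99). TPM scaling added calls for *Myl7* in *Eomes* KO (−1.14), dKO (−1.77) and between WT lines (−1.01) on day 2 and for *Tnnc1* from day 1 to day 2 (1.07), none of which arose with equal sums and the minimum kept. Scaling to a median of 0 changed no member's call. Depth is unknown, so values below FPKM 1 cannot be given a counting error.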
